A study of Mus musculus with 6 samples.

Results

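The genes that write, copy and erase DNA methylation, and the isocitrate dehydrogenases that supply a co-substrate of the erasers, were followed in RNA-seq of Lin- bcCML cells. The 9 genes were chosen by name and function, as Dnmt1, Dnmt3a, Dnmt3b, Uhrf1, Tet1, Tet2, Tet3, Idh1 and Idh2, and each matched 1 of the 36083 genes with a value per library. bcCML is blast crisis chronic myeloid leukemia, modelled here by sorting KLS cells, immature hematopoietic cells, from WT or Sdc1-/- mice on a B6 background, infecting them with retroviruses for BCR-ABL and NUP98-HOXA9, and transplanting the cells that carried both oncogenes. Both groups therefore share the 2 oncogenes, and both were grown in NSG recipients, which lack lymphocytes, until all mice were sacrificed at one time. Lin- cells, which lack the surface markers of mature lineages, were then sorted from the spleens, and 3 libraries labelled WT and 3 labelled Sdc1-/- were sequenced. The labels name NSG recipients, while the study's general methods name another recipient strain. The Sdc1-/- allele is described by the study as disrupted in the signaling peptide of Syndecan-1, a heparan sulfate proteoglycan of the cell surface.

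In mammals DNA is methylated mainly at cytosines that precede a guanine. DNMT3A and DNMT3B place new marks, DNMT1 copies marks to the daughter strand after replication, and UHRF1 brings DNMT1 to hemimethylated sites. TET1, TET2 and TET3 oxidise the mark with the help of 2-oxoglutarate, which IDH1 (cytosol) and IDH2 (mitochondria) make from isocitrate, and DNMT3A, TET2, IDH1 and IDH2 are known as genes mutated in human myeloid leukemia. RNA levels were measured here, and neither DNA methylation nor protein was.

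Values are TPM, transcript abundance per length scaled to a fixed total, which the authors rescaled between libraries. The sums per library ran from 944973 to 1058263, and the number of reads behind them is unknown. Fold changes are differences in the mean of log2(value + 1), libraries labelled Sdc1-/- minus libraries labelled WT, a scale that understates changes of low genes. They were tested with limma at a Benjamini-Hochberg threshold of 0.05 over 12155 genes, those averaging at least 1. The sources used here do not settle if each library is a mouse of its own, and a legend of the study calls WT libraries technical replicates. The p-values then measure only the spread between these libraries, which may be technical.

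Of the 9 genes, 5 rose and 3 fell in the libraries labelled Sdc1-/-, and Tet1 lay under the minimum mean. The genes of methylation maintenance rose together: Dnmt1 to 1.51 times its WT level and Uhrf1 to 1.58 times. Each family that places or removes marks split: Dnmt3b rose 1.60-fold while Dnmt3a fell to 0.713 times its WT level, and Tet3 rose 1.61-fold while Tet2 fell to 0.537 times. The dehydrogenases split as well, with Idh2 at 1.35 times and Idh1 at 0.699 times the WT level. All 8 tested genes were called, where 60.7% of all tested genes were called, 29.3% higher and 31.3% lower. In these 8 genes the groups did not overlap, as in 66.7% of all tested genes. So wide a background means that a call by itself sets none of these genes apart. The median size of change, without sign, was 0.58 for the 8 genes and 0.23 for all tested genes on the log2 scale. The genes were chosen with earlier results of these data known, so these medians do not set them apart either.

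**Figure D1:**
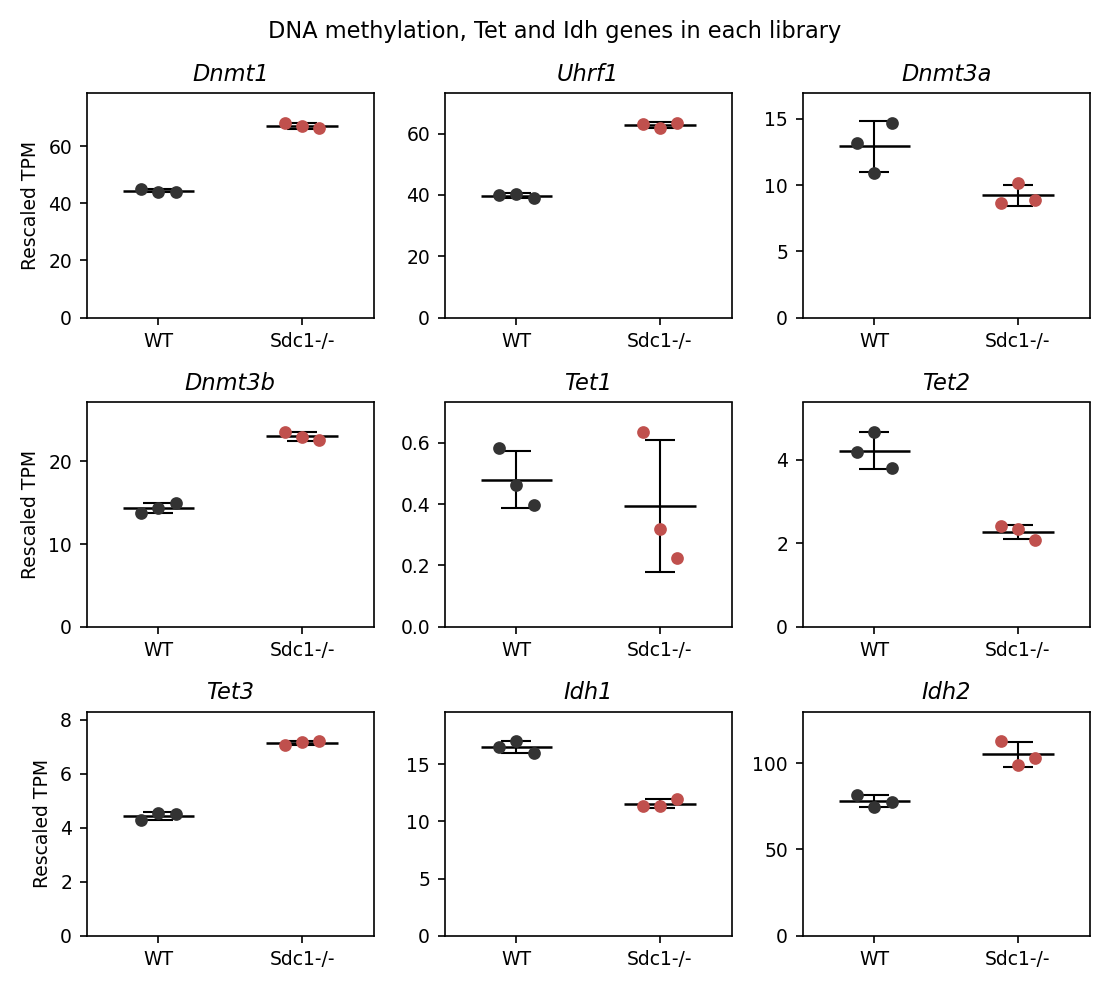
Value of each of the 9 genes (rescaled TPM, linear axes that start at 0) in the 3 libraries labelled WT (black) and the 3 labelled Sdc1-/- (red), with lines for the mean and the SD. The groups overlap for Tet1, whose values run from 0.224 to 0.636, and for none of the other 8 genes.

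The targeted gene, Sdc1, stood at 1.75, 1.21 and 1.51 under the label WT and at 3.85, 3.80 and 4.12 under Sdc1-/-. Its mRNA was thus higher under the knockout label, and the level of an mRNA does not show if it is intact, so the groups are called by their labels throughout. The summed value of 4 Y-linked genes, Ddx3y, Eif2s3y, Kdm5d and Uty, was 0.276 to 0.308 in the libraries labelled WT and 68.1 to 78.4 in those labelled Sdc1-/-, so that sex and genotype label cannot be told apart. Markers of mature cells also moved with the label. The 5 neutrophil markers were all lower, summing to 9840 to 10810 in WT and 3695 to 3846 in Sdc1-/-, and so were the 4 monocyte and macrophage markers (506 to 528 against 222 to 231). The 4 erythroid markers summed to 5765 to 5981 against 3163 to 3341, with 3 lower and Klf1 higher. T and B cell markers were below 1 in every library, and of 4 stromal and endothelial markers only Pecam1 was not. Of 5 markers of the leukemic progenitor, Meis1, Kit and Hoxa9 were higher and Flt3 and Cd34 lower. Without single libraries the calls of Kit and Hoxa9 were lost in 3 of 6 fits each, and that of Cd34 once each library summed to 1000000 (log2 fold change -0.24 to -0.095). The part of these cells in the results below was not tested, and in bulk RNA fewer cells of a type and less RNA per cell cannot be told apart.

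Dnmt1, which copies the methylation pattern at replication, lies on the minus strand at chr9:20907209-20959888 (GRCm38, GENCODE M21). In WT libraries it stood at 45.0, 44.1 and 44.0, and in libraries labelled Sdc1-/- at 68.2, 66.9 and 66.2. Libraries of one group lay close together and the groups far apart. The log2 fold change was 0.59 (standard error 0.030, 95% interval 0.51 to 0.66, adjusted p = 8.0e-06, limma). Uhrf1, the protein that recognises hemimethylated DNA, lies at chr17:56303321-56323486 on the plus strand. Values of 40.1, 40.3 and 39.1 were found in WT and of 63.0, 61.9 and 63.6 in Sdc1-/-. No library of one group came near the other, and the log2 fold change was 0.64 (standard error 0.031, 95% interval 0.57 to 0.72, adjusted p = 6.4e-06, limma). Within a library, where scaling between libraries cancels, Uhrf1 stood at 0.898 ± 0.015 of the Dnmt1 value in WT and at 0.937 ± 0.021 in Sdc1-/- (SD, n = 3 each). The groups did not overlap, and the log2 difference was 0.061 (two-sided exact permutation test, p = 0.1, which is the lowest p for 3 against 3 libraries).

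Short stretches of the start regions of these 2 genes are shown because the genes moved together. The letters of a binding site of E2F, the factor family that drives genes of S phase, were searched in the 250 bases before each start in the RefSeq promoters (GRCm38.p6), as TTTCCCGC, TTTCGCGC, TTTGCCGC or TTTGGCGC on either strand. The 4 words differ only in 2 middle letters, so that no stretch on one strand can match more than 1 of them. Of the 15 windows that RefSeq gives for the 9 genes, 2 held a word (13.3%), 1 of 3 of Dnmt1 and 1 of 2 of Uhrf1, where 611 of all 32851 windows did (1.86%). All 4 words hold a CpG, a cytosine before a guanine. The windows of the 9 genes had a median of 18 CpG, all windows a median of 6. The window with a word had 26 CpG in Dnmt1 and 30 in Uhrf1. Shares of windows or of genes were not compared at equal CpG content. In capitals is the matching word, TTTCGCGC in Uhrf1 and its reverse complement in Dnmt1, with 11 bases on each side.
Dnmt1, chr9:20952824-20952853, minus strand: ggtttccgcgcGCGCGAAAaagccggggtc
Uhrf1, chr17:56304117-56304146, plus strand: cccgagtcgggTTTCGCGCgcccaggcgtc
The word in Dnmt1 begins 219 bases before the annotated start, and that in Uhrf1 begins 185 bases before the start. Each word lies downstream of another annotated start of its gene. Of 19 genes of the S-phase list with a promoter in the table, 6 held a word (31.58%), against 2 of the 9 genes (22.22%) and 583 of all 27025 genes (2.16%), counting a gene once if any of its windows held one. A match gives letters in a window, not a bound site. The words were chosen with the changes of these genes known.

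Dnmt3a, one of the enzymes that place new methylation, lies at chr12:3806007-3914443. The libraries labelled WT gave 13.2, 10.9 and 14.7, those labelled Sdc1-/- 8.62, 10.2 and 8.90. The lowest WT library lay just above the highest Sdc1-/- library, and the spread of the WT libraries was the widest of the 8 tested genes, a coefficient of variation of 14.8%. The log2 fold change was -0.44 (standard error 0.108, 95% interval -0.70 to -0.18, adjusted p = 0.0105, limma). An antisense gene, Dnmt3aos, overlaps exons of Dnmt3a, and whether reads were counted by strand is not stated in the sources used here, so that reads of the 2 genes may not be told apart.

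Dnmt3b, the other de novo enzyme, lies at chr2:153649450-153687730. It had values of 13.8, 14.3 and 15.0 in WT and of 23.6, 23.0 and 22.6 in Sdc1-/-. The lowest library labelled Sdc1-/- exceeded the highest WT library, and the log2 fold change was 0.65 (standard error 0.043, 95% interval 0.54 to 0.75, adjusted p = 2.4e-05, limma). Of the 5185 words of 31 bases in its transcripts, 699 (13.5%) also occur in Dnmt3c, a germline copy of Dnmt3b. Dnmt3c itself stood at 2.02, 1.87 and 2.37 in WT and at 1.42, 1.50 and 1.60 in Sdc1-/-, so it was low and not higher in Sdc1-/-. In Uhrf1, 1045 of 4310 words (24.2%) recur elsewhere, mostly in Gm5648 and Gm15953, which had no value over 0.079 in any library. The shares were 0 in Idh1 and Idh2 and at most 1.75% in the other 5 genes.

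Within a library the balance of the de novo pair changed. Dnmt3b stood at 1.05, 1.32 and 1.02 times the value of Dnmt3a in the libraries labelled WT and at 2.74, 2.26 and 2.54 times in those labelled Sdc1-/-. No library of one group reached the other, and the log2 difference was 1.16 (two-sided exact permutation test, p = 0.1, adjusted p = 0.117 over 7 ratios). Relative to Dnmt1, Dnmt3a stood at 0.291 ± 0.043 in WT and 0.138 ± 0.013 in Sdc1-/- (SD, n = 3 each), a log2 difference of -1.08 with the same exact p of 0.1. The summed value of the 3 Dnmt genes was 71.7 ± 2.21 in WT and 99.4 ± 1.47 in Sdc1-/- (SD, n = 3). Dnmt1 made up 62.0% of it in WT and 67.5% in Sdc1-/-, Dnmt3b 20.1% and 23.2%, and Dnmt3a 18.0% and 9.28%.

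Tet2, the Tet gene most often tied to myeloid leukemia, lies on the minus strand at chr3:133463679-133545139. Its level was 4.19, 4.67 and 3.80 in the WT libraries and 2.41, 2.33 and 2.07 in those labelled Sdc1-/-. The lowest WT library stood well above the highest library labelled Sdc1-/-. Its log2 fold change was -0.67 (standard error 0.083, 95% interval -0.87 to -0.48, adjusted p = 4.2e-04, limma). An antisense gene, Gm42567, overlaps exons of Tet2, with the same limit on strand as for Dnmt3a.

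Tet3, another of the oxidising enzymes, lies on the minus strand at chr6:83362373-83459084. It went the other way, with values of 4.28, 4.54 and 4.49 in WT and of 7.07, 7.17 and 7.22 in Sdc1-/-. The libraries of a group were close to each other and the groups clearly apart (log2 fold change 0.58, standard error 0.048, 95% interval 0.47 to 0.70, adjusted p = 6.2e-05, limma). Tet1, the founding member of the family, was near the bottom of the measured range, with 0.582, 0.462 and 0.396 in WT and 0.636, 0.319 and 0.224 in Sdc1-/-. Its groups overlapped, and the highest and the lowest values both came from libraries labelled Sdc1-/-. In a fit with no minimum mean its log2 fold change was -0.097 (95% interval -0.39 to 0.20, adjusted p = 0.608, limma), an interval that leaves room for changes in either direction.

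Tet2 fell and Tet3 rose, and the sum of the 3 Tet genes did not separate the groups. It was 9.06, 9.68 and 8.69 in WT and 10.1, 9.82 and 9.51 in Sdc1-/-, and the groups overlapped (two-sided exact permutation test, p = 0.2). The shares of Tet2 and Tet3 in it did not overlap. Tet2 gave 46.3%, 48.3% and 43.7% of the sum in WT and 23.8%, 23.8% and 21.7% in Sdc1-/-. Tet3 gave 47.3%, 46.9% and 51.7% in WT and 69.9%, 73.0% and 75.9% in Sdc1-/-. The value of Tet3 was 1.06 ± 0.11 times that of Tet2 in WT and 3.17 ± 0.29 times in Sdc1-/- (SD, n = 3 each; log2 difference 1.58, two-sided exact permutation test, p = 0.1, adjusted p = 0.117). With 0.5 added to both values the log2 difference of Tet3 to Tet2 was 1.40. The ratio of Tet1 to Tet2 overlapped between the groups (p = 0.3, exact permutation test). Set against the Dnmt sum, the Tet sum stood at 0.128 ± 0.011 in WT and 0.0988 ± 0.0017 in Sdc1-/- (SD, n = 3 each), a log2 difference of -0.37 with no overlap and an exact p of 0.1.

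**Figure D2:**
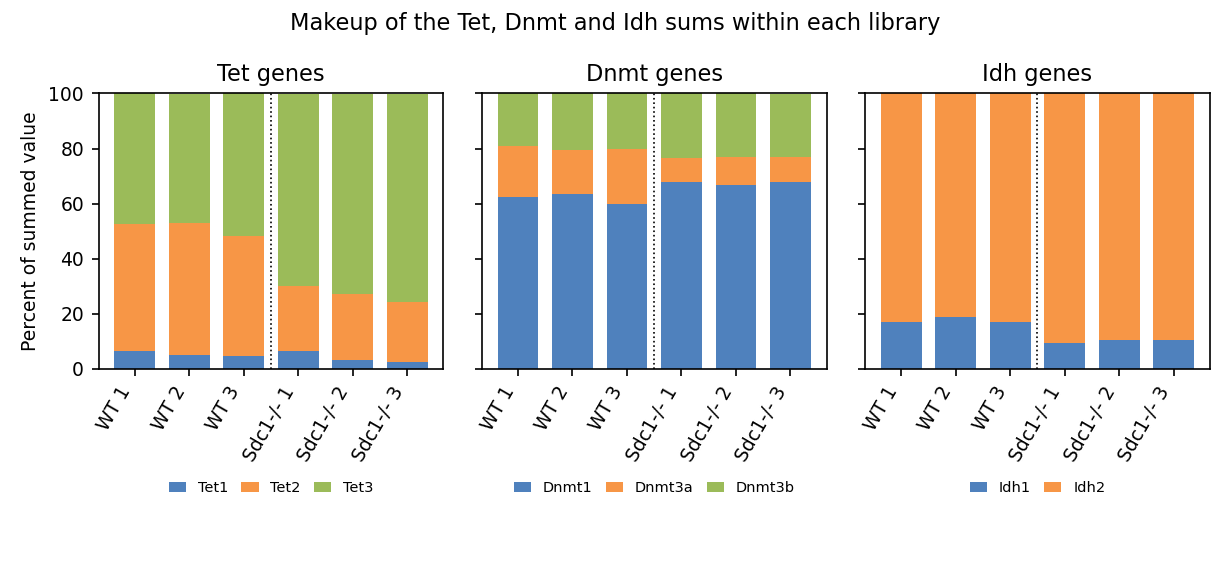
Share of each gene in the summed value (percent) of the Tet, Dnmt and Idh genes in each library, WT left and Sdc1-/- right of the dotted line. Tet2 makes up 43.7% to 48.3% of the Tet sum in WT and 21.7% to 23.8% in Sdc1-/-, and the shares of Dnmt3a and Idh1 are also smaller in each library labelled Sdc1-/-.

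Idh1, the cytosolic enzyme that makes 2-oxoglutarate and NADPH from isocitrate, lies on the minus strand at chr1:65158616-65186500. The WT libraries gave 16.6, 17.1 and 16.0, the libraries labelled Sdc1-/- 11.4, 11.4 and 11.99. All WT libraries lay above all others, and the log2 fold change was -0.48 (standard error 0.044, 95% interval -0.58 to -0.38, adjusted p = 1.0e-04, limma). Idh2, its mitochondrial counterpart, lies on the minus strand at chr7:80094846-80115392 and was the most abundant of the 9 genes per length in both groups. It had 81.7, 74.6 and 77.7 in WT and 113, 98.9 and 103 in Sdc1-/-. The groups did not overlap, although the libraries labelled Sdc1-/- spread over more units than those of any other gene of the 9 (log2 fold change 0.42, standard error 0.057, 95% interval 0.29 to 0.56, adjusted p = 6.7e-04, limma). Idh1 stood at 0.203, 0.229 and 0.206 of the Idh2 value in WT and at 0.101, 0.115 and 0.116 in Sdc1-/-. That is a log2 difference of -0.94, with no overlap between the groups (two-sided exact permutation test, p = 0.1, adjusted p = 0.117). Since Idh2 made up most of it, the Idh sum went from 94.6 ± 3.40 in WT to 117 ± 7.16 in Sdc1-/- (SD, n = 3).

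**Figure D3:**
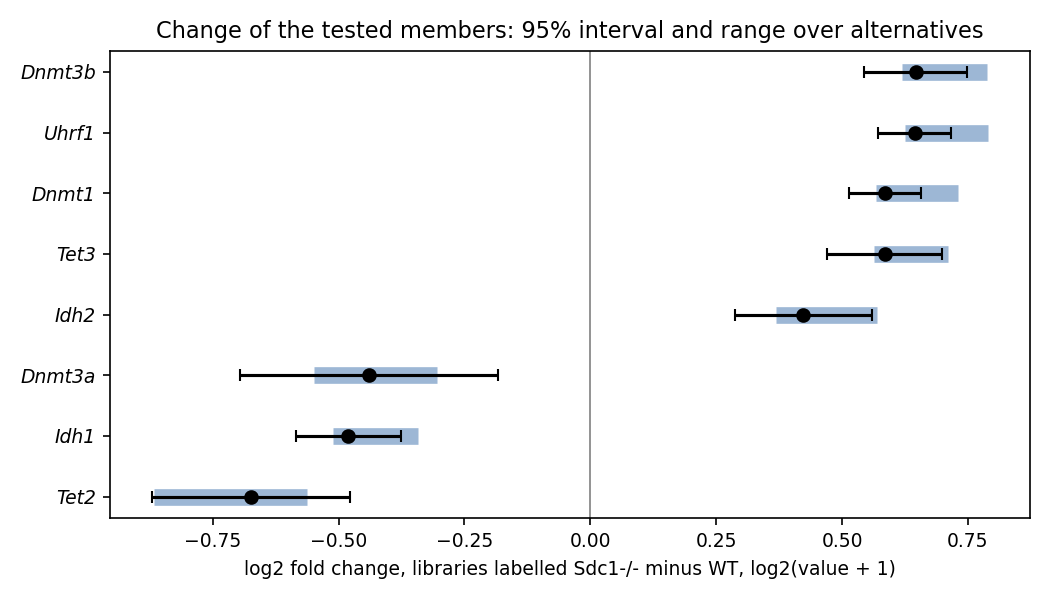
Log2 fold change of the 8 tested genes on the log2(value + 1) scale, libraries labelled Sdc1-/- minus WT, with points for the estimate, black bars for the 95% interval of limma and blue bands for the range over the alternative settings. No interval or band reaches 0, and the nearest bound to it is that of Dnmt3a, -0.18.

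Ordered by mean value per length, the libraries labelled WT had Idh2 (78.0) above Dnmt1 (44.4), Uhrf1 (39.8), Idh1 (16.6), Dnmt3b (14.4), Dnmt3a (12.9), Tet3 (4.44), Tet2 (4.22) and Tet1 (0.480). In WT the values of Dnmt3b and Dnmt3a overlapped, as did those of Tet3 and Tet2, so the order within these pairs is not beyond their spread. In the libraries labelled Sdc1-/- the order was the same except that Dnmt3b (23.0) stood above Idh1 (11.6). No neighbours overlapped there, so that both pairs which were level in WT were apart in Sdc1-/-.

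The wider pathway was read from 8 lists with 137 genes, given by counts and medians. Of all 12155 tested genes 29.3% rose and 31.3% fell, with a median log2 fold change of -0.0097. The counts of each list below are to be read beside these shares. Of 18 tested partners of maintenance and de novo methylation, 12 rose, 2 fell and 4 did not pass the test, with a median of 0.27. Uhrf2, a relative of Uhrf1, went from 17.9 ± 0.88 to 37.3 ± 0.17 (SD, n = 3; log2 fold change 1.02, adjusted p = 3.7e-06, limma), and Ehmt2, a histone H3 lysine methyltransferase, from 33.1 ± 1.81 to 56.6 ± 2.53 (0.76, adjusted p = 2.7e-05, limma). Dnmt3l, the catalytically inactive cofactor of the de novo enzymes, fell. It had 2.89, 2.68 and 3.001 in WT and 0.909, 0.929 and 1.89 in Sdc1-/-, with 1 library labelled Sdc1-/- far above the other two (log2 fold change -0.81, adjusted p = 0.00444, and -1.01 without that library, limma). An exon of Dnmt3l overlaps Aire on the opposite strand. Nsd1, which methylates histone H3 at lysine sites that recruit DNMT3A, also fell (-0.23, adjusted p = 0.00142, limma), a call that was lost once each library summed to 1000000 (-0.092).

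Among 7 tested readers of methylated CpG, 3 rose, none fell by limma, also at an unadjusted p under 0.05, and 4 did not pass the test (median 0.069). Mbd4, a reader with glycosylase activity, went from 4.07 ± 0.33 to 5.67 ± 0.31 (SD, n = 3; log2 fold change 0.39, adjusted p = 0.00212, limma). Zbtb38, a zinc finger reader, rose by 0.23 (adjusted p = 0.0168, limma), a call that depended on the libraries used, since the adjusted p was up to 0.0615 without WT replicate 1, WT replicate 3 or Sdc1-/- replicate 2 (the rise was 0.36 under the sum of 1000000). Of 13 tested genes that remove oxidised or deaminated 5-methylcytosine, 9 rose, 2 fell and 2 did not pass the test (median 0.33). Xrcc1, the scaffold of single-strand break repair, rose from 18.7 ± 1.06 to 44.0 ± 0.78 (SD, n = 3; log2 fold change 1.19, adjusted p = 3.1e-06, limma), and Polb, the gap-filling polymerase of base excision repair, rose by 0.43. The 2 that fell were Tdg, the glycosylase that acts on the products of the TET enzymes (56.4 ± 1.84 to 50.5 ± 0.82; -0.16, adjusted p = 0.00761, limma), and Gadd45a, a stress-induced gene (-0.31, adjusted p = 0.0278, limma). Neither passed once each library summed to 1000000, and Gadd45a had an adjusted p of 0.0839 without Sdc1-/- replicate 3 and was also lost without Sdc1-/- replicate 1.

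Of 13 partners and regulators of the Tet proteins, 7 were tested, of which 5 rose and 2 fell (median 0.64). Ogt, the O-GlcNAc transferase that binds TET2 and TET3, had 17.2, 16.5 and 16.4 in WT and 34.3, 35.2 and 35.5 in Sdc1-/-. The groups lay far apart (log2 fold change 1.03, adjusted p = 2.4e-06, limma). Cxxc5, a CXXC protein, rose by 0.70 (adjusted p = 4.3e-05). The calpains Capn2 and Capn1, proteases reported to act on TET proteins, fell, Capn2 from 5.61 ± 0.35 to 2.32 ± 0.27 (SD, n = 3; log2 fold change -0.996, adjusted p = 5.3e-05, limma) and Capn1 from 53.5 ± 1.09 to 41.3 ± 0.97 (-0.36, adjusted p = 1.1e-04, limma; -0.22 once each library summed to 1000000).

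The 24 genes of isocitrate and 2-oxoglutarate metabolism went both ways: 7 rose, 10 fell and 7 did not pass the test, with a median of -0.043. Once each library summed to 1000000 the counts of the list were 12 and 4. In the main fit 29.3% of all tested genes rose and 31.3% fell, so the counts of that fit do not set the list apart. Gls2, a mitochondrial glutaminase, went from 2.48 ± 0.14 to 5.60 ± 0.063 (SD, n = 3; log2 fold change 0.92, adjusted p = 1.7e-05, limma), and Bcat1, a branched-chain aminotransferase that consumes 2-oxoglutarate, from 1.28 ± 0.19 to 2.94 ± 0.46 (0.79, adjusted p = 7.2e-04, limma). Glud1, glutamate dehydrogenase, fell from 144 ± 7.23 to 101 ± 1.62 (-0.52, adjusted p = 5.8e-05, limma), and Aco1, the cytosolic aconitase, fell by 0.42 on the log2 scale (by 0.28 under the sum of 1000000). The 17 tested genes of methyl donor supply were as mixed, with 4 up, 6 down and 7 not passing (median -0.065), and 7 up and 3 down under the sum of 1000000. Mthfd1, an enzyme of the folate cycle, rose by 0.45 (adjusted p = 2.9e-05, limma). Mat2b, the regulatory subunit of methionine adenosyltransferase, fell from 86.6 ± 2.09 to 64.3 ± 1.69 (SD, n = 3; -0.42, adjusted p = 6.0e-05, limma), and Ahcy, which clears S-adenosylhomocysteine, from 156 ± 5.40 to 122 ± 3.46 (-0.35, adjusted p = 2.1e-04, limma). Under the sum of 1000000 these falls were smaller, -0.28 for Mat2b and -0.20 for Ahcy, and both still passed.

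DNMT1 and UHRF1 are known to be made mostly during S phase, so the same counts were taken for 24 S-phase genes. Of these 16 rose, where 29.3% of all tested genes rose. None of the 24 fell by limma, nor at an unadjusted p under 0.05, and 8 did not pass the test, with a list median of 0.20. Without 1 library each, 12 to 19 of the 24 rose, and 23 once each library summed to 1000000. The largest rises were those of Pola1, a subunit of DNA polymerase alpha (15.0 ± 0.37 to 23.9 ± 0.29; 0.64, adjusted p = 1.2e-05, limma), and Mcm3, of the replicative helicase (154 ± 1.59 to 219 ± 0.38; 0.51, adjusted p = 7.7e-06, limma). The change of Dnmt1 (0.59) thus lay between those of Mcm3 and Pola1. Those of Uhrf1 (0.644, standard error 0.031) and Pola1 (0.641, standard error 0.037) were level within their errors. Pola1 had the lower values, and the log2(value + 1) scale understates changes of low genes, so the 2 are not ranked. The changes of Dnmt1 and Uhrf1 were larger than that of every S-phase gene other than Pola1. The part of cell cycle in the changes of the 9 genes was not tested.

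**Figure D4:**
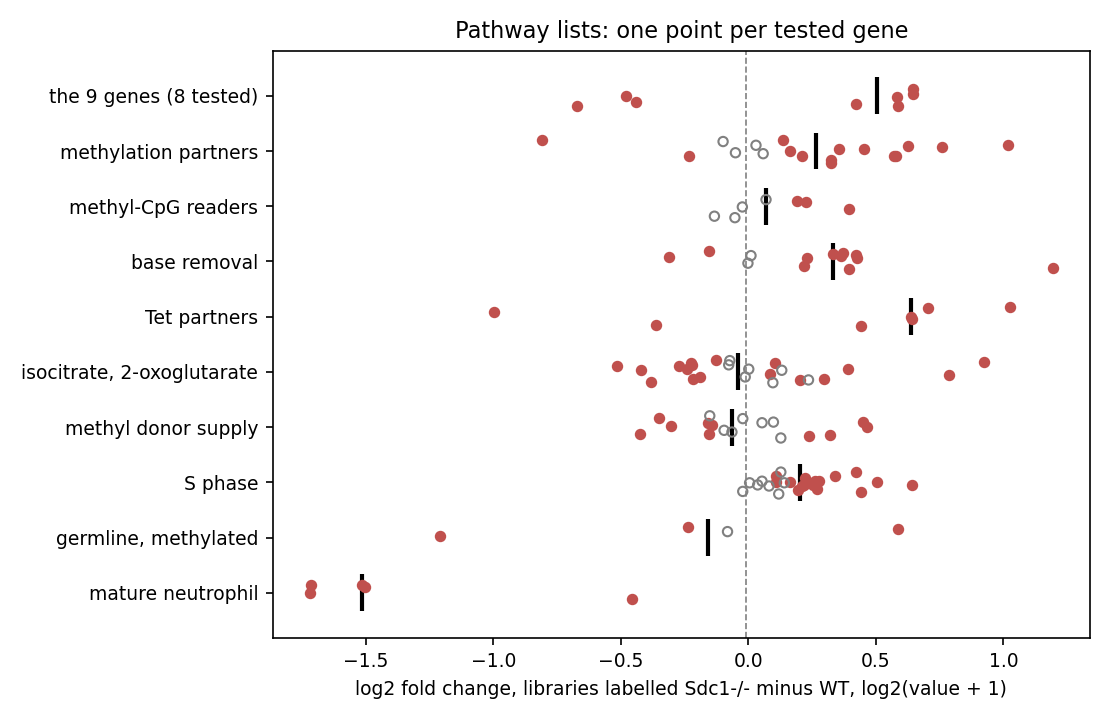
Log2 fold change of each tested gene in the lists, libraries labelled Sdc1-/- minus WT, on the log2(value + 1) scale. Red points passed the threshold in limma, open grey points did not, black bars mark the median of each list and the dashed line the median of all tested genes (-0.0097). S-phase genes that passed all lie right of the line, while the 5 mature neutrophil markers all lie left of it.

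The last of the 8 lists held germline genes whose promoters are usually methylated in somatic cells. Of 19 genes, 8 were listed at 0 in all libraries and 15 were below 1 in all, so that 4 were tested. Dazl, an RNA-binding protein of germ cells, had 19.8, 21.6 and 20.2 in WT and 8.08, 8.17 and 8.66 in Sdc1-/-. It fell by 1.21 on the log2 scale (standard error 0.049, adjusted p = 3.3e-06, limma), with the groups far apart. Asz1, of the piRNA pathway, went from 18.9 ± 0.39 to 16.0 ± 0.88 (SD, n = 3; -0.24, adjusted p = 0.00471, limma, a call lost under the sum of 1000000). Ddx4, the VASA helicase, had 8.28 ± 0.13 and 7.77 ± 0.36 (-0.082, adjusted p = 0.188, limma), a difference that changed sign under the sum of 1000000 (0.050). Tdrkh, a tudor protein, rose from 1.13 ± 0.20 to 2.19 ± 0.22 (0.59, adjusted p = 0.00184, limma; 0.91 with a pseudocount of 0.1). The libraries labelled WT thus held Dazl, Asz1 and Ddx4 at 8.15 or more and those labelled Sdc1-/- at 7.38 or more. Methylation of their promoters was not measured.

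For 4 of the genes, 1 for each role, the genes of most similar pattern over the 6 libraries were found by Pearson's r of log2(value + 1) among 8959 genes averaging at least 5. Schip1, C530008M17Rik and Hnrnph3 were most like Uhrf1 (r of 0.9995 to 0.9998), Fcor, Prmt5 and Ankrd46 most like Tet2 (0.9983 to 0.9994), Rpp25l, Gcat and Myc most like Idh2 (0.9971 to 0.9984), and Tmem268, Fam53b and Svip most like Dnmt3a (0.989 to 0.9949). All points share the 6 libraries and the gap between the 2 groups, which sets most of r. With Uhrf1, 425 genes had an r over 0.99, with Tet2 80, with Idh2 32 and with Dnmt3a 2. Of the 12 names, 6 were found again after quantile normalization and 7 once each library summed to 1000000.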

How the data were processed

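RNA-seq was measured in Lin- bcCML cells, 3 libraries labelled WT and 3 labelled Sdc1-/-. The libraries came from a stranded mRNA kit and were read as single reads. The authors assigned reads to transcripts with kallisto and deposited a signal per gene and library, TPM rescaled between libraries. The submitters' processing notes name sleuth 0.30.0 and build mm10, and the transcriptome release is not given in the sources used here. A further deposited table holds only the authors' own comparison (p, q, effect size and variances) and was not used here. Depth is unknown, so that no interval for counting error can be given.

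Genes averaging at least 1 were fitted on log2(value + 1) with limma 3.58.1 (R 4.3.3), which compared the groups with no covariate, under eBayes with a variance trend, at a Benjamini-Hochberg threshold of 0.05. The design had been written for plain TPM; its test also served for rescaled TPM. The script was tested on simulated data. Ratios within a library and sums were tested with exact permutation tests. Python 3.11.15, numpy 2.4.6, pandas 2.3.3, scipy 1.17.1 and matplotlib 3.10.9 were used. Gene symbols were found for 35454 of the 36083 identifiers. Positions, overlaps and shared words of 31 bases came from GENCODE M21, and promoters from RefSeq. All 9 genes matched.

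The genes and lists were chosen with earlier results of these data known. Named are the 9 genes, in each list up to 2 called genes with the largest and 2 with the smallest fold change, for Uhrf1, Dnmt3a, Tet2 and Idh2 the 3 most alike genes, and Sdc1. A gene that this rule names is not reported here. Ddx4, Dnmt3c and the Y-linked genes were added after their values were seen. Alternatives changed the pseudocount (0.1, 0.5), the minimum mean (none, 5), the scaling between libraries (quantiles, equal medians, a sum of 1000000), the trend of the variance, a replicate block and the set of libraries.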

Additional observations from a re-analysis of the deposited data

How the results depend on the processing

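The 119 refits of the 8 genes, 15 alternatives for each but 14 for Tet2, which a minimum mean of 5 removes, kept direction and call. The log2 fold change ran from 0.57 to 0.73 for Dnmt1, 0.63 to 0.79 for Uhrf1, 0.62 to 0.79 for Dnmt3b, 0.56 to 0.71 for Tet3, 0.37 to 0.57 for Idh2, -0.55 to -0.30 for Dnmt3a, -0.87 to -0.56 for Tet2 and -0.51 to -0.34 for Idh1. The highest adjusted p (limma) was 0.0434, for Dnmt3a once each library summed to 1000000. That scaling moved the median of all genes from -0.0097 to 0.12 and gave 5286 higher and 2380 lower genes in place of 3564 and 3810, so that lower genes were 31.05% of the calls, not 51.7%. Relative to the moved median, the 8 genes lay between -0.69 (Tet2) and 0.67 (Uhrf1). Without 1 library each, 3106 to 3368 genes were higher and 3369 to 3594 lower. Of 240 list counts 16 are reported as moved by over 1.5 times. Under the sum of 1000000, isocitrate genes had 12 higher and 4 lower, methyl donor genes 7 and 3, base removal 0 lower, germline genes 1 lower and methylation partners 1 lower. With a minimum mean of 5, base removal had 5 higher, Tet partners 1 lower, methylation partners 1 lower, isocitrate genes 4 higher and germline genes 0 higher. With no minimum mean, base removal had 1 lower and germline genes 2 higher. Without 1 library each, base removal had 1 to 2 lower. Ratios had 63 values under alternatives, and the replicate block cannot change their mean differences. A ratio counts as moved if its log2 difference shifted by at least its pooled SD within groups. Only Tet3 to Tet2 moved, to a log2 difference of 1.40 with 0.5 added. Tet1 to Tet2, with a pooled SD of 0.51, ran from 0.11 to 0.75 without 1 library each and does not count as moved.

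The replicate numbers did not pair the libraries: deviations of same-numbered libraries correlated at 0.151, -0.008 and 0.018, and WT replicate 2 correlated best with Sdc1-/- replicate 3. With the replicate block, 3653 genes were higher and 3971 lower, and the 8 genes kept their calls. Unknown depth, 3 libraries a group and a possible technical origin of the replicates limit what the spread can show, most of all for Tet1.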
